A study of Mus musculus with 17 samples.

Results

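DNA methylation in mammals is set and removed by a small group of enzymes, and the mRNA of 9 genes of this group was followed here while mouse embryonic stem cells with and without *Usb1* differentiated in retinoic acid (RA). The genes were *Dnmt1*, *Uhrf1*, *Dnmt3a*, *Dnmt3b* and *Dnmt3l* (the writers and their cofactors) and *Tet1*, *Tet2*, *Tet3* and *Tdg* (the erasers). They were picked by gene symbol. All 9 are among the 54532 genes of the expression table, and all 9 are among the 21871 genes that were tested.

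The cells were of the R1/E mouse embryonic stem cell line. Bulk RNA-seq covered 6 groups. Wild-type (WT) cells in self-renewal culture before RA (day 0) gave 2 libraries. The other groups gave 3 libraries each: *Usb1* knockout cells before RA, and either genotype after 1 and after 3 days of RA. *Usb1* encodes an exonuclease that trims the 3′ end of U6 snRNA, an RNA of the spliceosome. All *Usb1* knockout libraries came from 1 line made with CRISPR/Cas9, KO-1, and are called KO-1 below. The loss of *Usb1* and any other difference between the 2 lines of cells cannot be told apart. The labels number the replicates and do not say how far they were separate cultures, so p-values measure the spread between these libraries, which may be partly technical. Values are TPM, the deposited level of each gene scaled to its length and to the library. Fold changes are differences of log2(TPM + 1), with their standard errors. A gene passed the test at an adjusted p under 0.05 (limma, Benjamini-Hochberg over all genes tested) and was called when it also changed at least 2-fold.

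The labels were checked first. Before RA the 2 WT libraries held 40.0 and 37.1 TPM of *Usb1* mRNA, and the 3 KO-1 libraries 15.5, 15.2 and 17.9 TPM. It was lower in KO-1 at day 0, 1 and 3, with log2 fold changes of -1.20 ± 0.12, -1.34 ± 0.11 and -0.93 ± 0.11 (limma, adjusted p = 3.2e-05, 2.0e-06 and 9.4e-05), and it was still detected in every KO-1 library. The defining pluripotency genes *Pou5f1* and *Sox2* averaged 1382 and 903 TPM before RA in WT cells. *Lum* and *Dcn*, which mark fibroblasts such as feeder cells, were listed at 0 in both genotypes at day 0. All 8 fibroblast markers summed to 10.1 TPM in WT and 16.04 TPM in KO-1 cells at that day, led by *Thy1* (4.15 and 6.59 TPM). Of the 6 tested, 1 was called higher in KO-1, *Twist1* (0.797 against 3.86 TPM), beside 3.05% of all genes that were called. The Y-linked genes *Eif2s3y*, *Ddx3y* and *Uty* averaged 80.8, 63.4 and 14.4 TPM in WT cells before RA and were listed at 0 in all 9 KO-1 libraries. Each of the 17 libraries held between 15404379 and 17300186 reads on genes. Both WT libraries at day 0, the whole reference group of that day, stood apart in the number of genes with 1 read, at 239 and 1352, as did KO-1 replicate 1 at day 3, at 1224, against 2150 to 2467 in the other 14 libraries.

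As background, DNMT1 copies CpG methylation onto the new strand after replication, and UHRF1 brings it to hemimethylated DNA. DNMT3A and DNMT3B methylate DNA de novo, and DNMT3L, which has no catalytic activity of its own, stimulates them and is known from germ cells and embryonic stem cells. The TET dioxygenases oxidise 5-methylcytosine, and TDG excises the formyl and carboxyl forms so that base excision repair can restore cytosine. Embryonic stem cells are known for high *Tet1*, *Tet2* and *Dnmt3b*, and *Tet3* for the oocyte, zygote and differentiated tissues.

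The genes lie on different chromosomes of GRCm38, with 3 of them (*Dnmt3l*, *Tet1* and *Tdg*) on chromosome 10. *Dnmt3l* spans chr10:78041947-78063622 on the plus strand, and its exons cover 2988 bases. The windows of 250 bases before each start site annotated by RefSeq (GRCm38.p6) differ in CpG content, the substrate of these enzymes, and 3 of them are shown because they hold few CpG, an intermediate number and the most among the 9 genes. Capitals mark every CpG. The *Dnmt3l* window (second of 3 start sites, chr10:78049592-78049841, plus strand) has 4 CpG, the *Dnmt3b* window (chr2:153649199-153649448, plus strand) has 21, and the *Tet2* window (chr3:133544391-133544640, minus strand) has 51.
Dnmt3l: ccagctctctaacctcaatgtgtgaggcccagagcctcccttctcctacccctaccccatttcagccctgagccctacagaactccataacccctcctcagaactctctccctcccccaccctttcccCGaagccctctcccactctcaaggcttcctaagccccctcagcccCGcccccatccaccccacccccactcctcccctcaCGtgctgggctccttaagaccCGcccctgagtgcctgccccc
Dnmt3b: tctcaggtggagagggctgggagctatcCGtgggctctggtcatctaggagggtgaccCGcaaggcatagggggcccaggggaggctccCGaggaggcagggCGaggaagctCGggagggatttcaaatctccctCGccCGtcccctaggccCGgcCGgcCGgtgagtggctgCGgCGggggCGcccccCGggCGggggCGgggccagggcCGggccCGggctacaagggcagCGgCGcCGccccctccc
Tet2: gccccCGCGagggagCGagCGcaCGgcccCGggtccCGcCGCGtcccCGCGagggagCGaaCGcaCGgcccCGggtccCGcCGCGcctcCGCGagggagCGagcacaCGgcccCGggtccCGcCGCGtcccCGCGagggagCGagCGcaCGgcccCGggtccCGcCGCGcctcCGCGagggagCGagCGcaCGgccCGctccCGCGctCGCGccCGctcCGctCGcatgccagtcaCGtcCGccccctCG
The median over 32851 such windows of 27025 genes was 6 CpG. The 3 *Dnmt3l* windows had 5, 4 and 3 CpG. Among the windows of the other 8 genes, only 2 of the 3 of *Dnmt1*, with 7 and 2 CpG, held fewer than 10. Which start site was used cannot be read from a table of gene totals.

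The same 16 windows were searched on both strands for 4 written forms of the E2F motif, TTTCCCGC, TTTGGCGC, TTTCGCGC and TTTGCCGC. One of them was present in 1.86% of all windows. Among the 9 genes it was found in 1 window each of *Dnmt1* and *Uhrf1*, the maintenance pair, and both sites are shown with the 8 motif bases in capitals. The *Dnmt1* site lies at chr9:20952827-20952850 on the minus strand, with TTTCGCGC read from the opposite strand, and the *Uhrf1* site at chr17:56304120-56304143 on the plus strand.
Dnmt1: ttccgcgcGCGCGAAAaagccggg
Uhrf1: gagtcgggTTTCGCGCgcccaggc
Each site lies before the start of its own window and downstream of another annotated start of the same gene. A match of letters is a description of the window and not evidence of binding.

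At day 0 the 2 maintenance genes and *Tet1* were the most abundant of the 9. In WT cells the order of mean TPM was *Uhrf1* (432), *Dnmt1* (236), *Tet1* (229), *Tet2* (95.6), *Dnmt3b* (78.6), *Dnmt3l* (73.4), *Tdg* (16.1), *Dnmt3a* (9.0) and *Tet3* (5.03). The libraries of *Dnmt1* and *Tet1* overlapped, as did those of *Dnmt3b* and *Dnmt3l*, and the other neighbours in this order did not. In KO-1 cells before RA *Dnmt3l* averaged 15.7 TPM, where it overlapped *Tdg* (16.2) and was above *Dnmt3a* (7.80). After 3 days of RA *Tet1* was the lowest of the 9 in WT cells, at 11.0 TPM, with libraries overlapping those of *Tdg* (14.8). *Dnmt1* (170) and *Uhrf1* (164) then led in WT cells and overlapped each other, whereas every KO-1 value of *Uhrf1* (mean 198) was above every value of *Dnmt1* (mean 174).

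**Figure D1:**
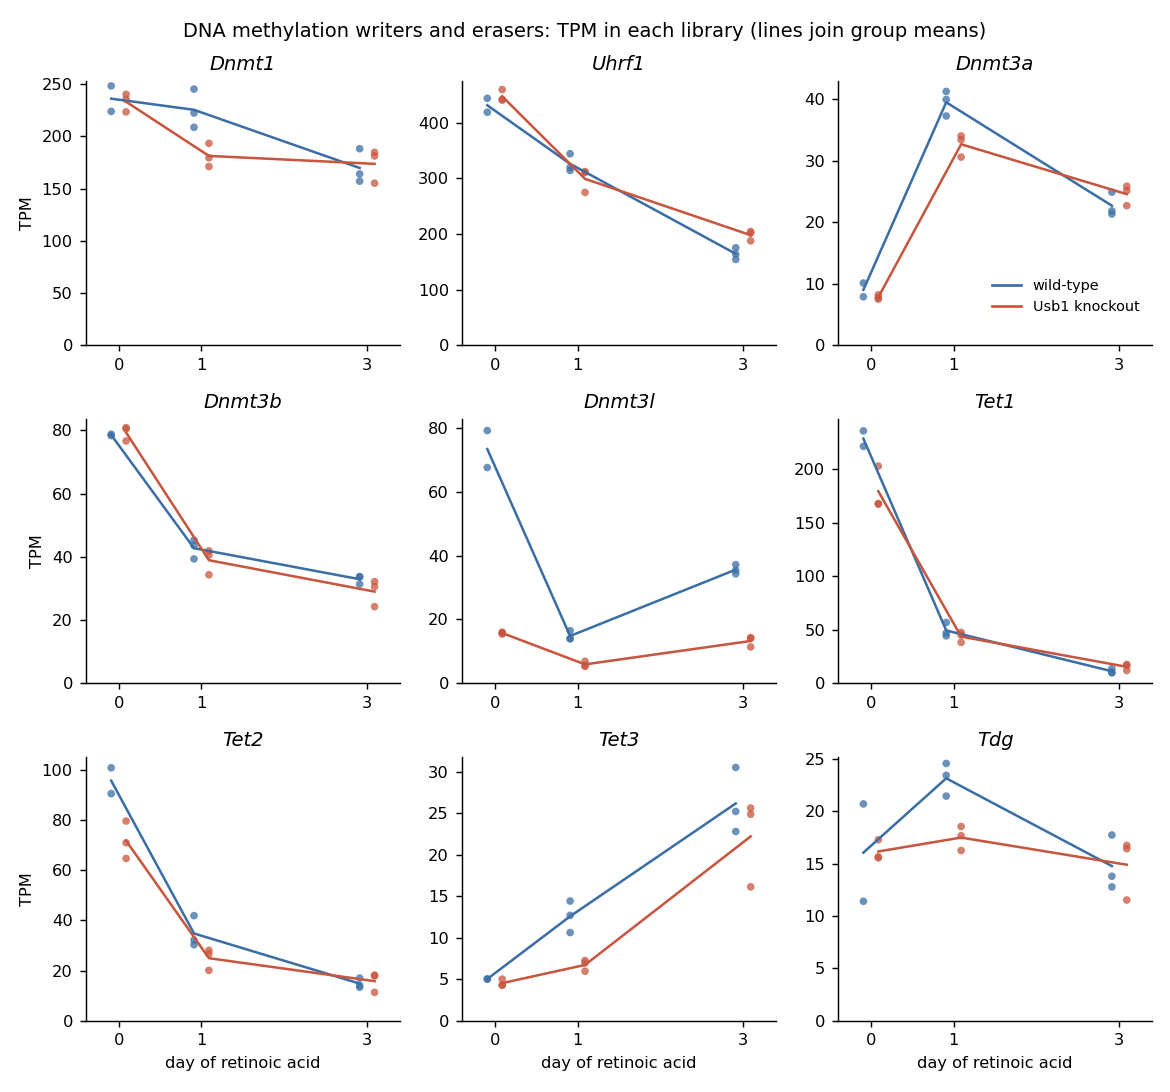
TPM of the 9 genes (y axes, each from 0) in every library at day 0, 1 and 3 of RA (x axes), WT in blue and *Usb1* knockout (KO-1) in red, with lines joining group means. *Dnmt3l* is the gene whose genotypes lie apart at every day, with means of 73.4, 14.8 and 35.6 TPM for WT and 15.7, 5.85 and 13.2 TPM for KO-1.

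Nearly all of these genes changed over the days of RA in WT cells. No library of day 1 or 3 without RA was analysed here, so RA and time away from self-renewal culture cannot be told apart. From day 0 to day 3, 8 of the 9 passed the test against 52.1% of all genes tested. Of them 6 were lower and 2 higher, beside 22.5% and 29.6% of all genes, and 7 were called against 25.8% of all genes. Their median log2 fold change was -1.02, beside 0.10 for all genes tested. From day 0 to day 1, 8 of 9 passed (38.0% of all genes) and 5 were called (13.9%). From day 1 to day 3, all 9 passed (43.8%) and 4 were called (15.2%). Among KO-1 libraries, 8 of 9 passed from day 0 to day 1 (27.7% of all genes) and 5 were called (6.95%). From day 1 to day 3 the numbers were 7 passed (44.9%) and 3 called (15.3%), and from day 0 to day 3 they were 7 passed (51.5%) and 6 called (21.9%). The comparisons of 1 genotype share libraries, and the genes were not independent of each other within a library. KO-1 replicate 1 at day 3, WT replicate 1 at day 0 and WT replicate 2 at day 1 each had the lowest value of their group in 8 of the 9 genes. WT replicate 2 at day 0, replicate 1 at day 1 and replicate 3 at day 3 each had the highest in 8.

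Of the maintenance pair, *Dnmt1* changed little and *Uhrf1* fell at each step. *Dnmt1* TPM in WT libraries was 224 and 248 before RA, then 245, 209 and 222 after 1 day and 164, 157 and 188 after 3 days. The day 0 and day 1 libraries overlapped, and all day 3 libraries lay below them. The log2 fold change of WT *Dnmt1* over 3 days was -0.48 ± 0.10 (limma, adjusted p = 6.7e-04), and over the first day -0.07 ± 0.10 (adjusted p = 0.62). KO-1 libraries held 240, 223 and 236 TPM of *Dnmt1*, then 179, 193 and 171, then 155, 181 and 185. Their first step was -0.36 ± 0.09 (limma, adjusted p = 5.4e-03) and their second -0.06 ± 0.09 (adjusted p = 0.60). Under equal median scaling the 2 steps that had not passed did so, at -0.25 for the first day in WT (adjusted p = 5.0e-03) and -0.26 for the second step in KO-1 (adjusted p = 1.1e-03), and the latter also in the fit on recovered reads (-0.18, adjusted p = 0.021). The difference between genotypes in the first step was -0.29 (95% confidence interval -0.57 to -0.02, limma, adjusted p = 0.25), which did not pass.

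WT libraries held 419 and 444 TPM of *Uhrf1* before RA, 344, 314 and 320 after 1 day and 164, 154 and 175 after 3 days. No library of a later day reached the range of an earlier one. The log2 fold changes of the 2 steps were -0.40 ± 0.07 and -0.98 ± 0.06 (limma, adjusted p = 3.8e-04 and 8.9e-09). KO-1 libraries held 442, 441 and 460 TPM, then 312, 311 and 275, then 188, 202 and 205, with steps of -0.58 ± 0.06 and -0.59 ± 0.06 (adjusted p = 6.6e-06 and 2.0e-06). The ratio of *Uhrf1* to *Dnmt1* TPM went from 1.83 ± 0.06 (SD, n = 2) to 1.45 ± 0.05 and 0.971 ± 0.035 (n = 3 each) in WT cells, and from 1.92 ± 0.07 to 1.65 ± 0.08 and 1.14 ± 0.06 in KO-1 cells (n = 3 each).

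Over the first day of RA the de novo enzymes moved in opposite directions, and *Dnmt3a* stayed below *Dnmt3b* in all 17 libraries. *Dnmt3a* TPM in WT libraries was 7.89 and 10.1 before RA, 41.3, 37.3 and 39.9 after 1 day and 21.8, 21.3 and 24.9 after 3 days. The 3 days did not overlap, with day 1 highest. It rose 4.39-fold in mean TPM by day 1 (log2 fold change 2.02 ± 0.10, limma, adjusted p = 3.0e-09) and the next step was -0.78 ± 0.09 (adjusted p = 8.0e-06). KO-1 libraries also peaked at day 1, with 7.51, 7.70 and 8.20 TPM, then 33.4, 34.0 and 30.6, then 22.7, 25.9 and 25.1, and steps of 1.93 ± 0.09 and -0.40 ± 0.09 (limma, adjusted p = 1.8e-09 and 2.8e-03).

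*Dnmt3b* went the other way. WT libraries held 78.8 and 78.4 TPM before RA, 45.3, 39.3 and 43.5 after 1 day, and 31.3, 33.6 and 33.7 after 3 days. The log2 fold change over 3 days was -1.23 ± 0.11 in WT and -1.43 ± 0.10 in KO-1 cells (limma, adjusted p = 2.1e-07 and 1.1e-08). KO-1 libraries held 76.7, 80.9 and 80.5 TPM, then 41.9, 40.5 and 34.3, then 24.2, 30.5 and 32.1, so that the genotypes overlapped at each day. *Dnmt3a* made up 10.3% ± 1.7 (SD, n = 2) of the summed *Dnmt3a* and *Dnmt3b* TPM in WT cells at day 0, 48.1% ± 0.5 at day 1 and 40.8% ± 1.8 at day 3 (n = 3 each). The KO-1 shares were 8.95% ± 0.28, 45.7% ± 1.4 and 46% ± 2.3 (n = 3 each). The summed TPM itself was 87.6 ± 1.3, 82.2 ± 5.1 and 55.6 ± 2.8 in WT cells. Antisense genes overlap both loci, and the library kit does not mark strand, so reads in such overlaps cannot be told apart.

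*Dnmt3l* alone of the 9 fell and then rose again. WT libraries held 67.6 and 79.2 TPM before RA, 13.9, 13.9 and 16.4 after 1 day, and 35.4, 37.1 and 34.2 after 3 days. The 3 days did not overlap. The mean fell 4.97-fold by day 1 (log2 fold change -2.24 ± 0.12, limma, adjusted p = 5.0e-09), then rose 2.41-fold (1.22 ± 0.11, adjusted p = 3.7e-07). KO-1 libraries held 15.8, 15.3 and 15.9 TPM, then 6.81, 5.22 and 5.52, then 14.0, 14.2 and 11.3. They too fell and rose, at a lower level, with steps of -1.29 ± 0.11 and 1.05 ± 0.11 (limma, adjusted p = 6.3e-07 and 1.7e-06). Over 3 days the KO-1 change was -0.24 ± 0.11 (adjusted p = 0.081), and it passed under quantile normalization (-0.50, adjusted p = 3.6e-03) and equal median scaling (-0.52, adjusted p = 3.4e-03).

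*Tet1* and *Tet2* fell together while *Tet3* rose. WT libraries held 221 and 236 TPM of *Tet1* before RA, 56.6, 44.1 and 46.8 after 1 day and 9.54, 9.97 and 13.5 after 3 days. Each day lay wholly below the day before. Over 3 days the mean fell 20.8-fold in WT cells (log2 fold change -4.27 ± 0.17, limma, adjusted p = 4.5e-11) and 11.8-fold in KO-1 cells (-3.49 ± 0.15, adjusted p = 1.0e-10). The KO-1 libraries held 203, 168 and 167 TPM, then 44.9, 47.4 and 38.0, then 11.7, 16.3 and 17.4. The change was less negative in KO-1 cells by 0.78 (95% confidence interval 0.28 to 1.27), with an adjusted p of 0.064 (limma) that did not pass. This difference passed without KO-1 replicate 1 at day 3 (0.94, adjusted p = 0.018), without WT replicate 3 at day 3 (0.92, adjusted p = 0.029) and in 4 other settings (adjusted p = 0.012 to 0.050).

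*Tet2* TPM in WT libraries was 90.4 and 101 before RA, then 41.9, 30.3 and 32.1, then 14.1, 13.3 and 17. The KO-1 libraries held 79.5, 64.6 and 70.9, then 26.6, 28.0 and 20.1, then 11.3, 18.2 and 17.8 TPM. The log2 fold changes over 3 days were -2.62 ± 0.20 in WT and -2.14 ± 0.18 in KO-1 cells (limma, adjusted p = 4.0e-08 and 9.9e-08), and mean TPM fell 6.45-fold and 4.54-fold. In KO-1 the day 1 and day 3 libraries did not overlap, and the step between them passed in the fit on all libraries (-0.64 ± 0.18, adjusted p = 8.4e-03) but not when those libraries were fitted alone (adjusted p = 0.072).

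*Tet3* TPM in WT libraries was 5.02 and 5.04 before RA, 14.4, 10.6 and 12.7 after 1 day and 25.2, 22.8 and 30.5 after 3 days, each day above the one before. It rose 5.20-fold over 3 days (log2 fold change 2.16 ± 0.19, limma, adjusted p = 1.6e-07). KO-1 libraries held 5.02, 4.29 and 4.29 TPM, then 6.96, 7.25 and 5.97, then 16.1, 25.6 and 24.9, a 4.90-fold rise over 3 days (2.04 ± 0.17, adjusted p = 7.9e-08). Most of the KO-1 rise came between day 1 and day 3 (1.56 ± 0.17). The first KO-1 step, 0.48 ± 0.17 (adjusted p = 0.044), did not pass in 9 of 26 settings (adjusted p = 0.0545 to 0.126), among them without any 1 of its day 0 libraries and without replicate 1 or 2 of its day 1 libraries.

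The makeup of the TET mRNA turned over. The 3 *Tet* genes summed to 329 ± 18 TPM in WT cells at day 0, 96.5 ± 14.6 at day 1 and 52.0 ± 7.9 at day 3 (SD, n = 2, 3 and 3). The *Tet1* share of this sum went from 69.5% to 51.0% and 21.1%, and the *Tet3* share from 1.53% ± 0.08 to 13.0% ± 0.7 and 50.3% ± 1.1. The KO-1 sums were 256 ± 28, 75.1 ± 9.8 and 53.1 ± 12.1 TPM (n = 3 each), and the *Tet3* share was 1.78% ± 0.03, 8.98% ± 0.29 and 41.7% ± 0.8. At day 0 the *Tet3* share was higher in every KO-1 library than in both WT libraries (1.75% to 1.81% against 1.48% and 1.58%). It was lower in every KO-1 library than in every WT library at day 1 (8.76% to 9.32% against 12.5% to 13.9%) and at day 3 (41.2% to 42.6% against 49.4% to 51.6%). These shares were not tested.

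**Figure D2:**
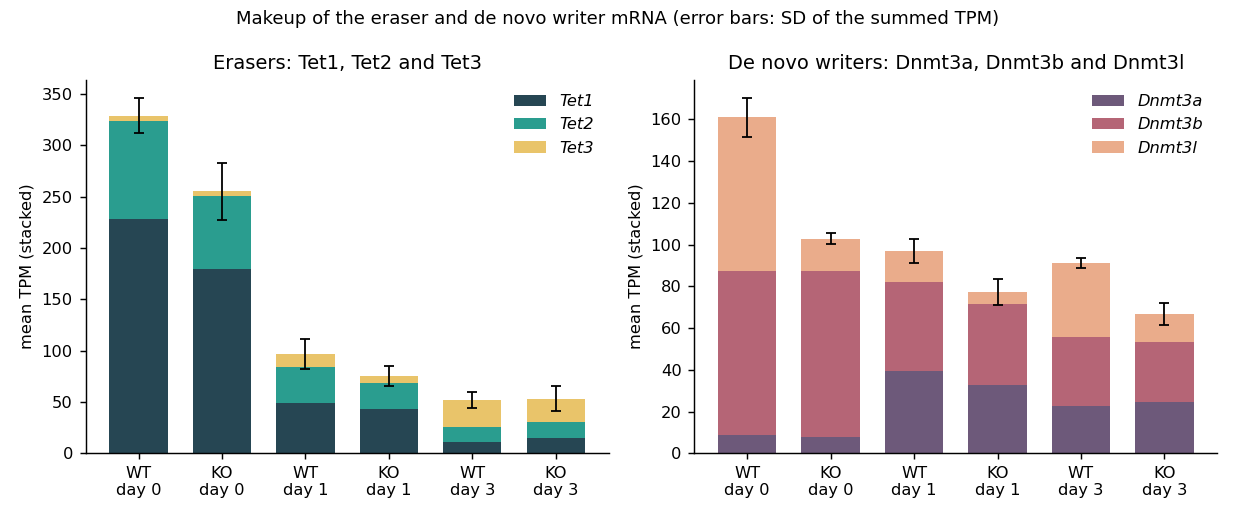
Mean TPM stacked by gene for *Tet1*, *Tet2* and *Tet3* (left) and for *Dnmt3a*, *Dnmt3b* and *Dnmt3l* (right) in the 6 groups, with error bars for the SD of the summed TPM (n = 2 for WT day 0, 3 for the others). *Tet3* grows from 1.53% to 50.3% of the TET sum in WT cells, and the *Dnmt3l* layer is thinner in KO-1 cells at every day.

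*Tdg* was the least changed eraser. WT libraries held 11.4 and 20.7 TPM before RA, 24.6, 21.5 and 23.4 after 1 day, and 12.8, 13.8 and 17.7 after 3 days. The 2 libraries from before RA lay further apart than the highest and the lowest group mean did. The step to day 1 was 0.56 ± 0.21 (limma, adjusted p = 0.046) and passed in 10 of 26 settings. Without WT replicate 1 at day 0 it was 0.15 (adjusted p = 0.62), and without any 1 of the WT day 1 libraries its adjusted p was 0.060 to 0.11. The step from day 1 to day 3 was -0.63 ± 0.18 (adjusted p = 0.012), and -0.53 (adjusted p = 0.056) without WT replicate 1 at day 3. All 9 KO-1 libraries lay between 11.5 and 18.6 TPM and no step passed, with 95% confidence intervals of -0.29 to 0.50, -0.63 to 0.16 and -0.52 to 0.27 for the first step, the second step and both together. Under equal median scaling the second step and both together passed, at -0.43 and -0.40 (adjusted p = 0.037 and 0.043), and the second step also with quantile normalization (-0.44, adjusted p = 0.038).

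The comparison of genotypes asked which of these genes differed when *Usb1* was lost. *Dnmt3l* was lower in KO-1 cells at all 3 days. At day 0, 1 of the 9 genes passed the test and was called, *Dnmt3l*, beside 11.9% of all genes that passed and 3.05% that were called. At day 1, 3 of 9 passed (17.3% of all genes) and 1 was called (2.22%). At day 3, 2 of 9 passed (7.52%) and 1 was called (1.29%). Apart from *Dnmt3l*, the share of the 9 that passed is near these background shares. At day 1 the groups of 7 of the 9 genes did not overlap, beside 39.8% of all genes, and all 7 were lower in KO-1, beside 30.4% of all genes. The median log2 fold change of all genes tested was itself -0.13 at day 1, and that of the 9 was -0.31. With libraries scaled to an equal median the median of all genes was 0.08, and *Uhrf1*, *Dnmt3b* and *Tet1* turned from -0.13, -0.13 and -0.17 to 0.09, 0.08 and 0.04. In the tests of the difference between the genotypes in the change over days, 1 of the 9 passed in each of day 0 to 1, day 1 to 3 and day 0 to 3, beside 2.23%, 7.61% and 6.15% of all genes.

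Mean *Dnmt3l* TPM was lower in KO-1 than in WT cells by 4.68-fold before RA, 2.52-fold after 1 day and 2.70-fold after 3 days. The log2 fold changes were -2.15 ± 0.12, -1.20 ± 0.11 and -1.37 ± 0.11 (limma, adjusted p = 1.7e-07, 6.1e-06 and 3.9e-06). The genotypes overlapped at no day. The 3 results passed in all 26 settings run, from -2.27 to -1.97, from -1.32 to -0.99 and from -1.43 to -1.27. Relative to its partners, the ratio of *Dnmt3l* to summed *Dnmt3a* and *Dnmt3b* TPM was 0.837 ± 0.081 for WT and 0.180 ± 0.007 for KO-1 at day 0, 0.180 ± 0.018 and 0.0819 ± 0.0106 at day 1, and 0.642 ± 0.050 and 0.250 ± 0.051 at day 3. The change to day 1 was less negative in KO-1 by 0.95 (95% confidence interval 0.60 to 1.3, adjusted p = 9.4e-03), and that to day 3 by 0.78 (0.43 to 1.13, adjusted p = 0.014). The difference between the genotypes was thus largest before RA. That for day 3 did not pass under quantile normalization (0.55, adjusted p = 0.099) or equal median scaling (0.69, adjusted p = 0.056).

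Of the 21871 genes tested, 24 (0.11%) were called lower in KO-1 at all 3 days, and *Dnmt3l* was one of them. With libraries scaled to an equal median *Dnmt3l* was at -0.99 at day 1, short of 2-fold, and would not be on this list. The day 0 calls that the list rests on were 668 genes, and 379 without WT replicate 1, 2249 without WT replicate 2 and 73 with the libraries of that day alone. Among the others were *Eif2s3y*, *Ddx3y* and *Uty* on the Y chromosome, *Col4a1* and *Col4a2*, which encode type IV collagen of the basement membrane, *Cubn* and *Amn*, which encode the endocytic receptor cubilin and its partner, and *Zfp980* and *Zfp534*, which are zinc-finger genes of chromosome 4. *Dnmt3l* was named in this list because it is one of the 9, and the others after their values were seen. What belongs to the loss of *Usb1* and what to the line cannot be told apart.

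**Figure D3:**
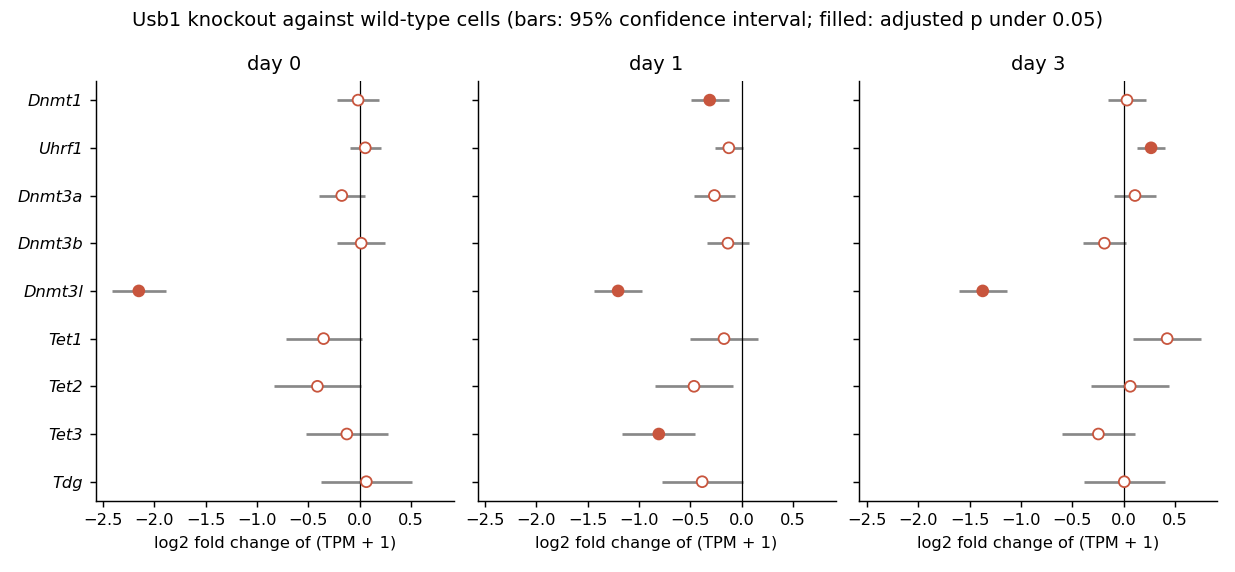
Log2 fold change of (TPM + 1), KO-1 against WT (x axes), for the 9 genes (y axis) at day 0, 1 and 3, with 95% confidence intervals and filled points for an adjusted p under 0.05. *Dnmt3l* lies at -2.15, -1.20 and -1.37, and 3 other points are filled, *Dnmt1* and *Tet3* at day 1 and *Uhrf1* at day 3.

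The other genotype differences were smaller. *Tet3* at day 1 ranged from 10.6 to 14.4 TPM in WT and from 5.97 to 7.25 TPM in KO-1 cells, 1.87-fold lower in the mean (log2 fold change -0.81 ± 0.17, limma, adjusted p = 4.5e-03). This passed in all 26 settings, from -0.91 to -0.59. At day 0 and day 3 the differences were -0.13 (95% confidence interval -0.53 to 0.27) and -0.25 (-0.60 to 0.11). Whether the *Tet3* difference changed with the day did not pass, at -0.68 for day 0 to day 1 (-1.22 to -0.15, adjusted p = 0.18) and 0.56 for day 1 to day 3 (0.06 to 1.07, adjusted p = 0.18). The latter passed without KO-1 replicate 1 at day 3 (0.77, adjusted p = 0.0238).

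*Dnmt1* at day 1 was lower in KO-1 (-0.31 ± 0.09, limma, adjusted p = 0.023), with no overlap between 209 to 245 and 171 to 193 TPM. With libraries scaled to an equal median it was -0.10 (adjusted p = 0.28), and it did not pass without WT replicate 1 or 3 or without KO-1 replicate 1 or 3 of day 1 (adjusted p = 0.054 to 0.11). *Uhrf1* at day 3 was higher in KO-1 by 0.27 ± 0.06 (adjusted p = 0.017), at 188 to 205 against 154 to 175 TPM. It did not pass with the day 3 libraries fitted alone (0.27, adjusted p = 0.11), nor without WT replicate 1 or 2 or KO-1 replicate 2 or 3 of day 3 (adjusted p = 0.051 to 0.077). Its change from day 1 to day 3 was less negative in KO-1 by 0.39 (95% confidence interval 0.20 to 0.58, adjusted p = 0.015), which was 0.20 (adjusted p = 0.18) under equal median scaling.

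Several differences that did not pass had groups that did not overlap or passed in some settings. *Tet1* and *Tet2* had every KO-1 library below both WT libraries at day 0, with log2 fold changes of -0.35 (95% confidence interval -0.72 to 0.02) and -0.41 (-0.84 to 0.01). *Tet1* passed there in the fit on recovered reads (-0.28, adjusted p = 0.047). The day 0 groups hold only 2 WT and 3 KO-1 libraries, so separation alone says little. The share of all genes without overlap at day 0 is not given here. At day 1 *Tet2* was at -0.46 (-0.85 to -0.08, limma, adjusted p = 0.090) and *Dnmt3a* at -0.27 (-0.47 to -0.07, adjusted p = 0.066), and *Dnmt3a* passed in 4 of the alternatives (adjusted p = 0.029 to 0.048) and *Tet2* in 1 (without KO-1 replicate 1 at day 3, adjusted p = 0.0365). Under equal median scaling they were nearer 0, *Dnmt3a* at -0.05 (adjusted p = 0.73) and *Tet2* at -0.25 (adjusted p = 0.23). *Tdg* at day 1 was at -0.38 (-0.78 to 0.01, adjusted p = 0.18), with no overlap between 21.5 to 24.6 TPM in WT and 16.3 to 18.6 TPM in KO-1, and it passed with the libraries of that day alone (adjusted p = 0.0275) and was -0.17 (adjusted p = 0.547) under equal median scaling. At day 3 *Tet1* was at 0.42 (0.09 to 0.76, adjusted p = 0.13), and it passed without KO-1 replicate 1 (0.59, adjusted p = 0.032) and in 3 other settings (adjusted p = 0.022 to 0.046). *Dnmt3b* was at 0.01 (-0.22 to 0.25), -0.13 (-0.34 to 0.07) and -0.19 (-0.40 to 0.02) at day 0, 1 and 3, so these intervals hold no difference as large as 2-fold.

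The neighbours of *Dnmt3l* on chromosome 10 were chosen for description after values of the series were seen. *Aire*, a transcriptional regulator known from the thymus, lies on the opposite strand at chr10:78030022-78043610 and overlaps the start of *Dnmt3l*, with 67 shared exon bases, 2.24% of those of *Dnmt3l*. Reads from those bases cannot be told apart by strand. Before RA *Aire* averaged 19.1 ± 6.1 TPM in 2 WT libraries and 3.60 ± 0.25 TPM in 3 KO-1 libraries (± SD), and after 1 day 9.69 ± 0.36 and 4.10 ± 0.51 TPM (n = 3 each). Its log2 fold changes were -2.09 ± 0.18 and -1.07 ± 0.16, and 0.35 ± 0.16 at day 3 (limma, adjusted p = 0.25), when *Aire* averaged 2.20 and 3.07 TPM. *Icosl*, a ligand of T cell costimulation and the next gene on the other side, was lower at day 0 and day 1 (-1.02 ± 0.24 and -0.85 ± 0.21, adjusted p = 0.014 for both). *Pfkl*, a phosphofructokinase of glycolysis, was lower too at those days (-0.45 ± 0.07 and -0.47 ± 0.06, adjusted p = 1.4e-03 and 2.2e-04). Of the 4 tested neighbours on each side, only *Aire*, *Pfkl* and *Icosl* were lower at both days at an adjusted p under 0.05, and no neighbour passed at day 3, while *Dnmt3l* remained lower.

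**Figure D4:**
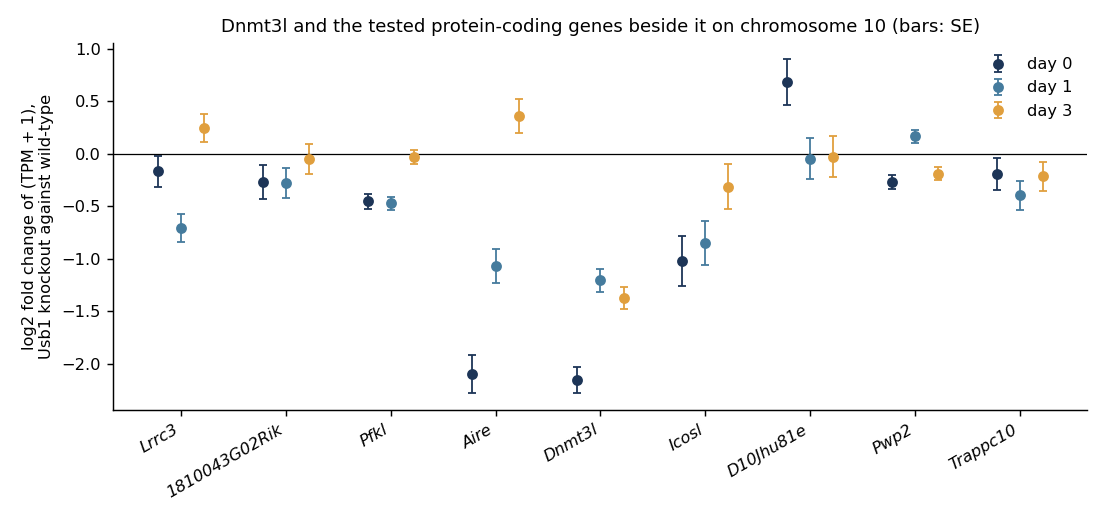
Log2 fold change of (TPM + 1), KO-1 against WT (y axis, bars for the standard error), for *Dnmt3l* and the 4 tested protein-coding genes on each side in their order on chromosome 10 (x axis), at day 0, 1 and 3. *Aire* lies beside *Dnmt3l* at day 0 (-2.09 and -2.15) and *Icosl* above them (-1.02), and at day 3 both lie above *Dnmt3l* (0.35 and -0.31 against -1.37).

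Of 15 partners and regulators of the writers, which include repressors and inhibitors of them, 10 fell, 1 rose and 4 did not pass in WT cells from day 0 to day 3, with 7 of the falls at least 2-fold. Of all genes 22.5% passed lower and 29.6% higher there. The median log2 fold change was -0.90, beside 0.10 for all genes. *Zfp57*, the zinc-finger protein that guards imprints, went from 959 ± 91 to 148 ± 7 TPM (log2 fold change -2.68). *Trim28*, its corepressor, went from 2555 ± 53 to 889 ± 19 TPM (-1.52), and *Hells*, a chromatin remodeller, from 221 ± 8 to 87.0 ± 3.2 TPM (-1.34). *Prdm14*, which represses de novo methyltransferases in naive cells, fell from 51.7 ± 4.2 to 0.946 ± 0.429 TPM (-4.78). In KO-1 10 fell and 2 rose over the same time, and 6 of the falls were at least 2-fold, beside 51.5% of all genes that passed and 21.9% that were called in either direction.

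Between genotypes 4 of the 15 passed at day 0, 3 at day 1 and 3 at day 3, beside 11.9%, 17.3% and 7.52% of all genes. In the tests of the difference between the genotypes in the change over days, 2 passed from day 0 to 1, 5 from day 1 to 3 and 5 from day 0 to 3, beside 2.23%, 7.61% and 6.15% of all genes, with 4 of the 5 less negative or more positive in KO-1 in each of the last 2. At day 0, *Trim28* (-0.38 ± 0.05), *Zfp57* (-0.40 ± 0.09) and *Hells* (-0.32 ± 0.08) were lower in KO-1 and *Dppa3* was higher (limma, adjusted p = 3.1e-04, 8.8e-03, 0.021 and 4.7e-03). *Dppa3* encodes an inhibitor of UHRF1. The WT libraries before RA held 0 and 0.253 TPM of it and the KO-1 libraries 3.89 to 5.63 TPM, a log2 fold change of 2.32 ± 0.44 at low TPM. The ranges were 0 to 2.72 against 3.09 to 4.32 TPM after 1 day (1.37, adjusted p = 0.029) and 0.260 to 0.727 against 0 to 1.02 TPM after 3 days (-0.29, adjusted p = 0.79). *Prdm14* was higher in KO-1 at day 1 (0.67) and at day 3 (1.44), when WT libraries held 0.495 to 1.35 TPM and KO-1 libraries 3.65 to 4.62 TPM.

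Of 8 readers of methylated CpG, 5 rose, none fell and 3 did not pass in WT cells from day 0 to day 3, beside 29.6% of all genes that passed higher, with a median of 0.65 on the log2 scale, and 6 passed higher and 2 did not pass in KO-1, with a median of 0.83, beside 51.5% of all genes that passed in either direction. *Zbtb4* went from 1.00 to 9.06 TPM (2.42), *Uhrf2*, the paralogue of *Uhrf1*, from 23.6 to 49.8 TPM (1.05) and *Mbd2* from 38.3 to 72.8 TPM (0.91) in WT cells. *Uhrf2* thus rose where *Uhrf1* fell. *Mbd1* and *Mbd2* were lower in KO-1 at day 0 (-0.43 and -0.35) and day 1 (-0.40 and -0.30), as was *Uhrf2* at day 1 (-0.42). Of the 8 readers 2, 3 and 0 passed at day 0, 1 and 3, beside 11.9%, 17.3% and 7.52% of all genes. For a list of this size, none passing at day 3 is near the share of all genes.

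Of 15 genes for removal of oxidised bases and excision repair, 3 rose and 5 fell in WT cells over 3 days, beside 29.6% and 22.5% of all genes, with a median of -0.09. *Parp1* (-1.52) and *Apex1* (-1.32), which act at repair breaks and abasic sites, fell, and *Gadd45g* (5.02) and *Gadd45b* (1.96), stress-induced genes linked to demethylation, rose. *Gadd45g* ranged from 36.3 to 43.4 TPM in WT and from 3.44 to 4.25 TPM in KO-1 libraries at day 1 (-3.11, limma, adjusted p = 4.8e-08), and was lower in KO-1 also at day 0 (-1.29) and day 3 (-0.84). *Parp1* was higher in KO-1 at each day, by 0.24, 0.31 and 0.32. Of the 15, 1 passed higher and 1 lower in KO-1 at day 0, beside 11.9% of all genes that passed. At day 1, 2 passed higher and 3 lower (17.3% of all genes), and at day 3, 2 higher and 2 lower (7.52%). Of 8 partners of the erasers and CpG binders, *Nanog* (-5.12) and *Prdm14* (-4.78) fell and *Cxxc4* (2.15) rose in WT cells over 3 days. Of all genes 22.5% passed lower and 29.6% higher, and the median was 0.07 beside 0.10 for all genes. Between genotypes 1 of the 8 passed lower in KO-1 at day 0, 4 lower and 2 higher at day 1, and 1 lower and 2 higher at day 3. The shares of all genes that passed were 11.9%, 17.3% and 7.52%. *Kdm2b*, a histone demethylase that binds unmethylated CpG, was lower in KO-1 at day 0 (-0.69) and day 1 (-0.61) and did not pass at day 3 (-0.09).

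Of 9 genes for methyl donor and cofactor supply, 3 rose and 4 fell in WT cells over 3 days, beside 29.6% and 22.5% of all genes. *Mat2a*, which makes S-adenosylmethionine, went from 531 to 200 TPM (-1.40), and *Ahcy*, which clears S-adenosylhomocysteine, from 144 to 69.4 TPM (-1.05). Both were higher in KO-1 at day 3, by 0.26 and 0.36, whereas *Mat2a* averaged 531 TPM in WT and 444 TPM in KO-1 at day 0. Of the 9, 2 passed lower in KO-1 and none higher at day 0, and 4 lower and none higher at day 1. At day 3, 3 passed higher and none lower. Of all genes 11.9%, 17.3% and 7.52% passed between genotypes at day 0, 1 and 3. The replication and cycling genes, with which *Dnmt1* and *Uhrf1* are known to be co-expressed, had 10 of 11 lower in each genotype over 3 days. Their median log2 fold changes were -1.025 in WT and -0.78 in KO-1, beside 0.10 and 0.03 for all genes, of which 22.5% passed lower in WT and 51.5% in either direction in KO-1. *Ccne1* went from 362 to 94.1 TPM and *Mcm5* from 794 to 256 TPM in WT cells. At day 3 *Mcm5* was higher in KO-1 by 0.27, as was *Mcm3* by 0.25, while *Mcm6* was lower in KO-1 at every day (-0.65, -0.49 and -0.27). In bulk RNA, fewer cells of a kind and less RNA in each cell cannot be told apart.

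**Figure D5:**
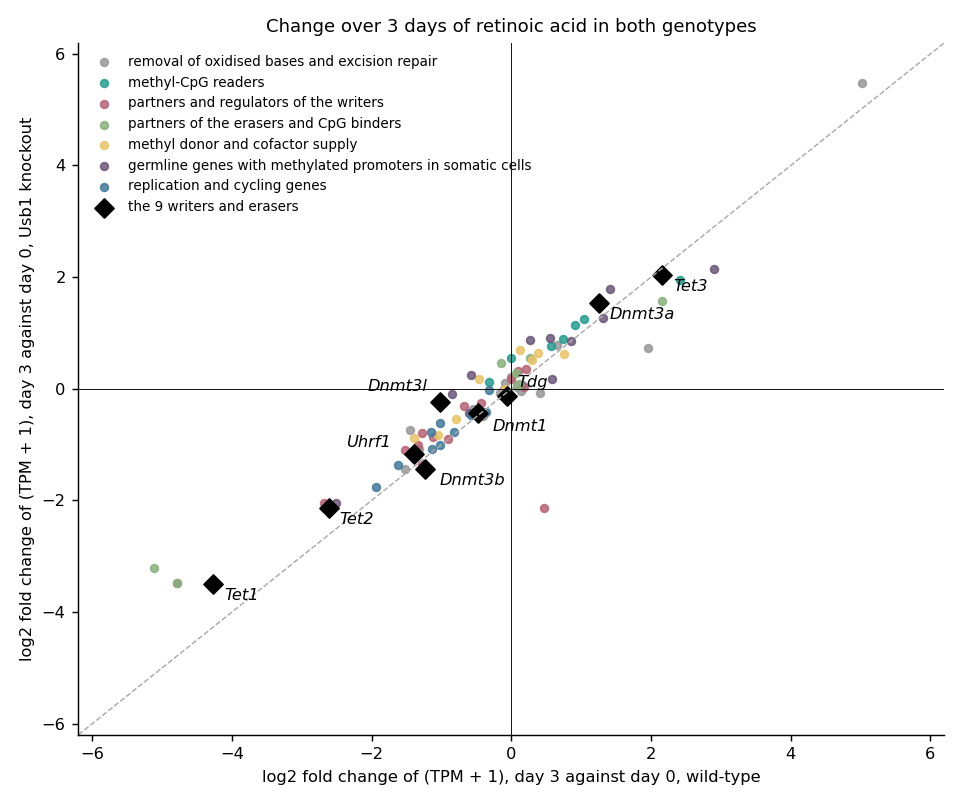
Log2 fold change of (TPM + 1) from day 0 to day 3 of RA in WT (x axis) and KO-1 cells (y axis) for the 9 genes (black diamonds) and the genes of 7 related lists (coloured points), with the line of equal change dashed. *Tet1* and *Tet2* lie lowest of the 9 (-4.27 and -2.62 in WT cells) and *Tet3* and *Dnmt3a* highest (2.16 and 1.25).

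Germline genes whose promoters are methylated in somatic cells were read as genes that methylation is known to silence. Of 12 such genes, 11 were tested. In WT cells from day 0 to day 1, 7 rose and none fell, with a median of 0.89 on the log2 scale beside 0.17 for all genes, of which 38.0% passed. In KO-1 cells 9 rose and none fell, with a median of 1.23, beside 27.7% of all genes that passed. From day 1 to day 3, 1 rose and 4 fell in WT and 1 rose and 5 fell in KO-1 cells, beside 43.8% and 44.9% of all genes that passed. Over the 3 days 5 rose and 4 fell in WT and 6 rose and 1 fell in KO-1 cells, beside 52.1% and 51.5% of all genes that passed. *Dazl* went from 9.89 ± 4.46 (SD, n = 2) to 26.0 ± 0.7 TPM and back to 6.03 ± 1.26 TPM (n = 3 each) in WT cells, whereas *Mael* and *Ddx4* were still at 50.3 and 45.9 TPM at day 3. Between genotypes none of the 11 passed at day 0 or day 3, beside 11.9% and 7.52% of all genes. For a list of this size, none passing is near those shares. At day 1, 3 passed, *Tex101* (1.26), *Stk31* (0.37) and *Ddx4* (0.36), all higher in KO-1, beside 17.3% of all genes that passed in either direction. Methylation itself was not measured in these libraries.

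Cell type markers moved beside these results. The 8 pluripotency markers summed to 6346 and 6387 TPM in WT and KO-1 cells at day 0, 3235 and 4024 TPM at day 1, and 362 and 595 TPM at day 3. *Pou5f1* was the most abundant at day 0 and day 1 and *Sox2* at day 3. At day 3, 7 of 8 were higher in KO-1, beside 7.52% of all genes that passed in either direction. Among them were *Nanog* (22.6 against 87.2 TPM) and *Sox2* (115 against 223 TPM), and *Klf4* was lower (-0.82). All 6 endoderm markers were lower in KO-1 at day 3, with sums of 571 and 291 TPM led by *Foxa2*. At day 1, 5 of 6 were lower, with sums of 79.8 and 21.6 TPM led by *Gata6*. Of all genes 7.52% passed at day 3 and 17.3% at day 1, in either direction. At day 0 the endoderm sums averaged 18.5 TPM in WT, from 2 libraries at 11.4 and 25.6 TPM, and 10.2 TPM in KO-1. Of the 6 endoderm markers, 2 passed lower in KO-1 at that day and none higher, beside 11.9% of all genes. The 6 trophectoderm markers summed to 5069 and 5045 TPM at day 3, nearly all from the keratins *Krt8* and *Krt18*, while *Elf5* was listed at 0 in WT cells at that day. Of the 5 tested, 2 were called higher in KO-1 at day 3, *Tfap2c* (5.69 against 21.4 TPM) and *Hand1* (30.4 against 64.8 TPM), beside 1.29% of all genes. At day 0 the sums were 71.8 and 116.3 TPM, and 3 passed higher in KO-1, *Krt8*, *Krt18* and *Tfap2c*, beside 11.9% of all genes. The 8 fibroblast markers summed to 71.3 and 109.9 TPM at day 3, led by *Col1a1*. Of the 6 tested, 5 were higher in KO-1, beside 7.52% of all genes that passed. The 6 formative genes had 3 higher and 2 lower in each genotype over 3 days, beside 52.1% (WT) and 51.5% (KO-1) of all genes that passed, led by *Sox4* (7.09 to 169 TPM in WT cells), and *Fgf5* averaged below 1 TPM in every group. At day 1 the formative sums were 69.4 TPM in WT and 37.5 TPM in KO-1, led by *Sox4* (45.3 against 20.5 TPM). Of the 6, 2 passed lower in KO-1 and none higher at that day, beside 17.3% of all genes, and none passed at day 0 or day 3. The part of these cell types in the changes of the 9 genes was not tested.

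The closest patterns over the 17 libraries were read as Pearson r of log2(TPM + 1) among 12445 genes, a description in which all genes share the same libraries and time course. *Uhrf1* was nearest *Sall1* (r = 0.997), *Tet1* nearest *Ddx21* (0.996), *Tet2* nearest *Sde2* (0.993), *Tet3* nearest *Mprip* (0.992), *Dnmt3a* nearest *Gtf2i* (0.991), *Dnmt3b* nearest *Klf5* (0.989) and *Dnmt1* nearest *Mcm3ap* (0.974). *Dnmt3l* had less close neighbours, *Mfsd10* (0.940), *Spindoc* (0.928) and *Cyp2s1* (0.915), and so had *Tdg*, with *Tecpr2* at 0.919. *Cyp2s1*, a cytochrome P450, averaged 12.2, 2.89 and 10.8 TPM in the WT time course and 6.47, 1.68 and 3.44 TPM in that of KO-1, lowest at day 1 as *Dnmt3l* was. Among the 9 genes, *Tet1* and *Tet2* were closest to each other (0.982), *Tet3* ran opposite to *Uhrf1* (-0.902), and *Dnmt3l* was close to no other member, at -0.497 to 0.327.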

How the data were processed

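RNA-seq of 17 libraries in 6 groups was analysed. The authors made the libraries with a NEBNext Ultra kit, which does not mark strand, and deposited TPM calculated from gene length and read count. The submitters' processing notes name HISAT2 2.1.0, StringTie 1.3.6 and GRCm38.p6. The authors' tests used DESeq2. TPM are not counts, so log2(TPM + 1) was fitted here with limma 3.58.1 in R 4.3.3 (means of the 6 groups, variance trend, all 17 libraries), after a filter that kept genes reaching 1 TPM in 2 or more libraries,, with Benjamini-Hochberg adjustment in each of 12 comparisons. Reads were recovered from TPM and GENCODE M21 exon lengths (95.9% to 96.7% of values whole within 0.01). At this depth 3 reads, the limit that 0 reads allow under counting error alone, are 0.214 TPM for *Dnmt3l* and 0.0385 TPM for *Dnmt3a* on average. No 2 replicates agreed within sampling noise (chi-square per gene 2.94 to 17.2).

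Genes named are the 9, *Usb1*, up to 6 passing genes of each list with the largest change, defining markers, and up to 3 genes of highest r for each member (mean TPM of at least 5). The chromosome 10 neighbours of *Dnmt3l* and the genes lower in KO-1 at all 3 days were named outside this rule, after their values were seen. The members and lists were chosen with earlier results of these data known. Alternatives were a pseudocount of 0.1, no filter, a filter at TPM of at least 5, quantile normalization, equal median scaling, the libraries of the comparison alone, a replicate block, adjusted p alone, and leaving out each library. limma's voom on the recovered reads was added after seeing the data. The fit was also run on simulated data, but the outcome is not given here and no result rests on it. Tables were made with pandas 2.3.3 and numpy 2.4.6 under Python 3.11.15, and plots with matplotlib 3.10.9. Protein sequences were not used here.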

Additional observations from a re-analysis of the deposited data

Results flagged for a closer look

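The change over the days of RA differed between the genotypes in 3 results, each by limma's test of the difference itself. The change of *Dnmt3l* from day 0 to day 1 was less negative in *Usb1* knockout (KO-1) than in wild-type cells by 0.9485 on the log2 scale (adjusted p = 9.4e-03), and its change from day 0 to day 3 by 0.7804 (adjusted p = 0.014). The change of *Uhrf1* from day 1 to day 3 was less negative in KO-1 by 0.3933 (adjusted p = 0.015). Of the 9 genes 1 passed in each of these comparisons, beside 2.23%, 6.15% and 7.61% of all genes tested.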

How the results depend on the processing

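Of 2700 repeats of the 108 results for single genes, 2614 kept their side of the threshold, with changes of sign only in differences near 0 that did not pass and moved by less than the replicate error, 34 came to pass, 41 no longer passed and 11 without a pass moved by more than the replicate error. No called value turned its direction. With adjusted p alone, the members counted were 3 at day 1 and 2 at day 3 for KO-1 against WT, 8 and 9 for WT day 1 against day 0 and day 3 against day 1, 8 and 7 for the same steps in KO-1, and 1 for each genotype difference. Under equal median scaling *Dnmt3l* at day 1 was below 2-fold, so 0 members were called there, and 1 was called for the genotype difference from day 0 to day 1. Leaving out 1 library moved that last count from 0 to 1. No other count of called members moved by over 1.5 times.

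Scaling to an equal median moved the median of all genes from -0.13 to 0.08 for KO-1 against WT at day 1, and the genes called higher there from 101 of 485 to 187 of 362 (169 of 386 with quantile normalization). For WT day 3 against day 0 the higher calls went from 3522 of 5640 to 2804 of 5626, and for KO-1 from 3023 of 4782 to 2134 of 5087. At day 0, 668 genes were called for KO-1 against WT, 379 without WT replicate 1, 2249 without replicate 2 and 73 with the libraries of that day alone.

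Same-numbered replicates did not deviate together (mean r -0.005 over 40 pairs, 1 of them over 0.1), so no pairing by number was seen. Deviations were taken within groups of 2 or 3 libraries, so these r values are not independent. They cannot tell whether same-numbered libraries shared a culture or a batch. With a replicate block the counts of called members were unchanged, at 7 for WT day 3 against day 0 and 1 for KO-1 against WT at each day, and 1 of 108 results no longer passed, *Tet3* in KO-1 at day 1 against day 0 (adjusted p = 0.066).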
